A study of Mus musculus with 6 samples.

Results

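The 8 genes described here code for proteins of peripheral myelin, or for a factor that switches such genes on: Mbp, Pmp22, Prx, Cldn19, Mag, Gjb1, Mal and Egr2. They were taken by symbol from the deposited expression tables, and all 8 were found among 21572 gene symbols. The libraries, 3 groups of 2, were made from polyadenylated RNA of the soleus, a postural leg muscle with many slow fibres, of adult C57BL/6 mice. The first group was soleus labelled Dach2-/-/Hdac9-/-, 3 days after denervation, a genotype named for the loss of a pair of transcriptional co-repressors and called DKO-labelled below. The second was wild-type (WT) soleus 3 days after denervation, and the third was innervated WT soleus. Innervated soleus of the knockout was not analysed here, so the effect of genotype can be read only in denervated muscle. The labels do not say how the muscle was denervated, whether the knockout acts in every cell, or whether each library is a different animal. The spread that enters the p-values is that between libraries and may be technical.

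Myelin in muscle is made by Schwann cells, which wrap the motor and sensory axons running through the tissue. The transcription factor Egr2, working with Sox10, turns on the genes of compact myelin and of the junctions at its edges, and contact with a living axon keeps this program on. When the axon is cut, Schwann cells downstream of the injury lose the myelin program and take on a repair state, marked among others by the neurotrophin receptor Ngfr and the trophic factor Gdnf. A whole muscle holds few Schwann cells, so their transcripts form a small share of its RNA. The cell source of the RNA of the genes described here was not tested. In bulk tissue, fewer cells of a type and less RNA per cell cannot be told apart.

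The libraries held 25529434 to 46305449 fragments. Muscle fibre genes were abundant in them. Levels are given as FPKM, fragments scaled for gene length and by the authors' factor for each library. That factor does not follow the library total alone. It was 1.1789 for WT innervated replicate 1, with 31671100 fragments, and 0.9237 for DKO-labelled replicate 1, with 32380082 fragments. A group difference in FPKM can thus differ from one scaled by library total. The 10 listed fibre markers summed to 14600 and 14800 FPKM in DKO-labelled libraries and 16900 and 17700 in WT denervated libraries. Their sum was 36300 and 39300 FPKM in WT innervated libraries. Acta1, a skeletal actin on this list, was listed at 0 in every library. The replicates of a group differed by more than counting noise, most of all the WT denervated pair, with a chi-square per degree of freedom of 172, against 68.0 for the DKO-labelled pair and 33.3 for the WT innervated pair. Dach2 had 0.961 and 0.681 FPKM in DKO-labelled libraries, 0.519 and 0.536 in WT denervated libraries, and 3.85 and 4.29 in WT innervated libraries. Hdac9 had 0.534 and 0.181 FPKM in DKO-labelled libraries, 1.83 and 0.285 in WT denervated libraries, and 4.1 and 3.14 in WT innervated libraries. DKO-labelled Dach2 was thus above the WT denervated level, and whole-gene values do not show whether part of a gene is deleted.

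Promoters are shown for some members: Gjb1, the member that moved the other way, with 2 of its starts, and Mag, Prx and Pmp22. Mag, Prx and Pmp22 were among the members lower after denervation. Every window shown holds a match. Each window is from RefSeq on GRCm38.p6, runs 5′ to 3′ on the gene's own strand, and holds 250 bases before and 50 bases after an annotated start. Capitals mark letters that match one of 4 motifs on either strand: ACAAAG and ACAATG, bound by the SOX family, TATAAA, known as the TATA box, and CCAAT, bound by nuclear factor Y. A match to ACAAAG on the other strand is printed as CTTTGT. A match to ACAATG there is printed as CATTGT, and one to CCAAT as ATTGG.
Gjb1, chrX:101383482-101383781, plus strand: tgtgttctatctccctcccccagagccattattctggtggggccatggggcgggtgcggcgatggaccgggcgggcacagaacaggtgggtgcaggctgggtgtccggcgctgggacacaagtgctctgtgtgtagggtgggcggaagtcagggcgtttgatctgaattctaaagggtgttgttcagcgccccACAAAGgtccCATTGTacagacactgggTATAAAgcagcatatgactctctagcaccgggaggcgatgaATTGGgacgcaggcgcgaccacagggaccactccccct
Gjb1, chrX:101376126-101376425, plus strand: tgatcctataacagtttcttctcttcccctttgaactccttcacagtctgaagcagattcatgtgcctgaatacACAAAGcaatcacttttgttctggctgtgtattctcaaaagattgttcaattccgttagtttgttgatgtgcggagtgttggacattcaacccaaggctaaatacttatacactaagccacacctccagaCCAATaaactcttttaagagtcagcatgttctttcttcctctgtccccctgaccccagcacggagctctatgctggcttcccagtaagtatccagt
Mag, chr7:30914873-30915172, minus strand: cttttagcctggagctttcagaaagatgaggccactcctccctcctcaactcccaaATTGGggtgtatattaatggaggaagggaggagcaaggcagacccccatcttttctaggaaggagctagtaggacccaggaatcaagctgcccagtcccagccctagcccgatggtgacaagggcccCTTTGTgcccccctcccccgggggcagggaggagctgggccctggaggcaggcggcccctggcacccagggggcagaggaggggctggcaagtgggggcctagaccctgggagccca
Prx, chr7:27499074-27499373, plus strand: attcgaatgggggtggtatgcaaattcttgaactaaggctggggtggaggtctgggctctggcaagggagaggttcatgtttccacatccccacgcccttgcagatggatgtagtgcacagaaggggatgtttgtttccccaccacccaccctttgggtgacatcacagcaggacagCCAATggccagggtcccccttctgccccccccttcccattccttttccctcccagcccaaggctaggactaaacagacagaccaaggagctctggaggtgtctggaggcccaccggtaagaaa
Pmp22, chr11:63128732-63129031, plus strand: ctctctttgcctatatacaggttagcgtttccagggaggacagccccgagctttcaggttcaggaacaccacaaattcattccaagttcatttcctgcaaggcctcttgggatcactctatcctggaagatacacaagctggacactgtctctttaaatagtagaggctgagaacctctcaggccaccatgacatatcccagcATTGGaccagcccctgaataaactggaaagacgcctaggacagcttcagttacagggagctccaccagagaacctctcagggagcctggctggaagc

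Positions are those of a match's first printed base relative to the start. The first Gjb1 window held ACAAAG at -57, a match to ACAATG at -47, TATAAA at -29 and a match to CCAAT at 13. The second Gjb1 window held ACAAAG at -176 and CCAAT at -46. The Mag window held a match to ACAAAG at -67 and one to CCAAT at -194. The Prx window held CCAAT at -73, and the Pmp22 window a match to it at -47. One more motif, GCGNGGGCG (EGR family, searched on both strands), matched none of the 20 member windows searched, which belong to 7 members. Mbp was left out of this search of the members. The windows of Mal and Cldn19 held no match to any of these motifs, nor did some windows of Egr2, Pmp22 and Gjb1. Over all 32851 windows of this length, 18.7% held ACAAAG, 12.6% ACAATG, 13.6% TATAAA, 37.4% CCAAT and 5.55% GCGNGGGCG. These matches are short and common, they describe the letters only, and no window of Mbp is shown.

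In WT soleus, 3 days of denervation was accompanied by lower RNA of 6 of the 7 members that passed the expression minimum, and by higher Gjb1. Pmp22 and Mbp, the most abundant members, were about as much lower as each other, and Prx, Cldn19 and Egr2 had larger fold changes. All 7 passed the test (edgeR quasi-likelihood, Benjamini-Hochberg adjusted p under 0.05), against 28.7% of the 12247 genes tested. The share of all genes called lower was 14.3%, and the share called higher was 14.4%. With library totals in place of trimmed-mean scaling these shares were 9.34% lower and 27.2% higher. The minimum was a mean of 0.5 FPKM over all 6 libraries. Mag did not reach it, and Cldn19 and Egr2 reached it only through their WT innervated level, so the count called is not by itself support for a difference. In FPKM the libraries of the groups did not overlap at any of the 8 genes, but 71.1% of all genes tested did not overlap either.

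**Figure D1:**
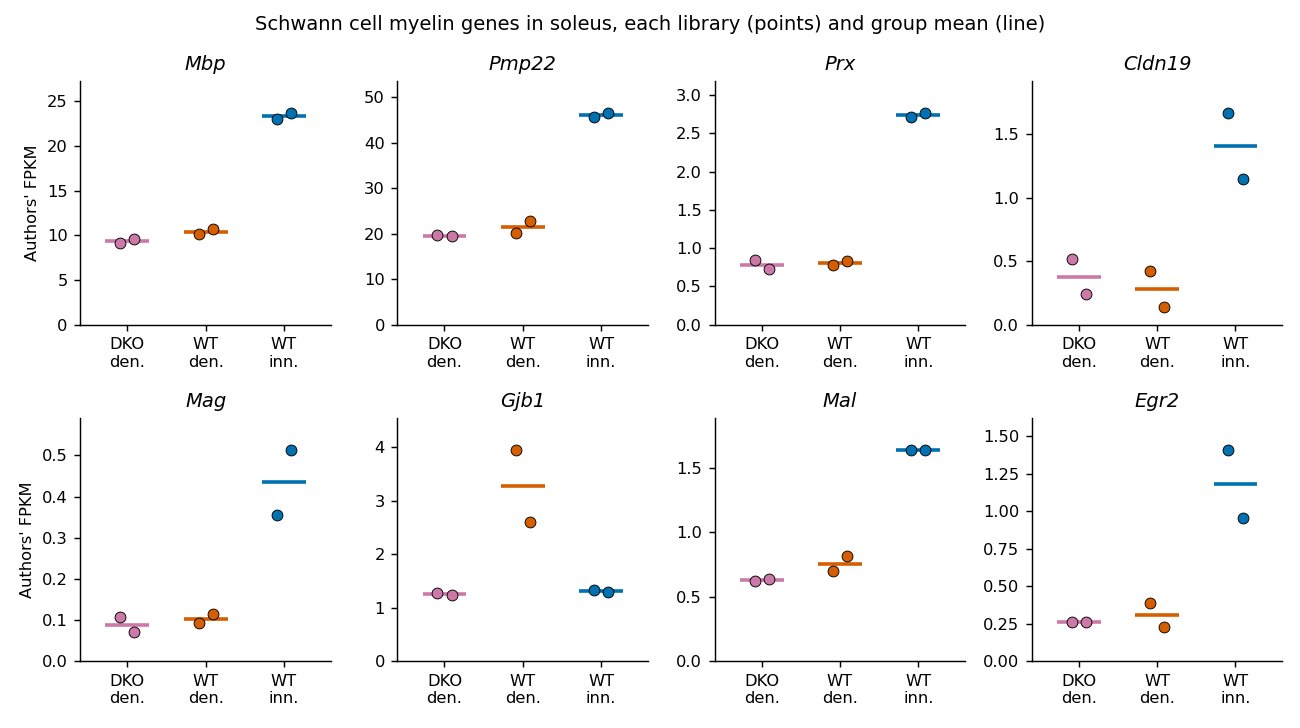
FPKM of the 8 myelin genes (y axis, from 0) in DKO-labelled denervated, WT denervated and WT innervated soleus; points are single libraries and lines are means of 2. In 7 panels both denervated groups lie below WT innervated, and in the Gjb1 panel the WT denervated libraries (3.96 and 2.61 FPKM) lie above the other 4.

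Among the proteins that build the compact sheath, Mbp, on chromosome 18, codes for myelin basic protein, which holds the inner faces of the membrane layers together. Mbp had 10.1 and 10.7 FPKM in WT denervated libraries, against 23.0 and 23.7 FPKM in WT innervated libraries. The groups did not overlap, and each pair of libraries lay close together. The fitted log2 fold change was -0.92 ± 0.14 (SE; edgeR adjusted p = 0.00777), a 1.89-fold lower level. FPKM per fragment also differed: 1000 scaled fragments of Mbp gave 9.51 to 9.90 FPKM in the 4 denervated libraries and 11.3 to 11.4 FPKM in the 2 innervated ones. The FPKM of Mbp thus differs between these groups by more than its fragments do, and what made the authors' length term differ was not tested.

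Pmp22 (mm9, chr11:62945011-62973048) codes for a membrane protein of compact myelin whose gene dosage matters for inherited neuropathy. It had 20.1 and 22.8 FPKM in WT denervated libraries, against 45.6 and 46.6 FPKM in WT innervated libraries. The groups were far apart relative to the spread within them. The fitted difference was -1.06 ± 0.14 on the log2 scale, 2.08-fold lower (edgeR adjusted p = 0.0059). Its tetraspan relatives Emp1, Emp2 and Emp3 had log2 fold changes of -0.22, 0.36 and -0.21, and none of these passed the test.

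Prx (mm9, chr7:28284342-28305060) codes for periaxin, which ties the outer Schwann cell membrane to the dystroglycan complex. It had 0.786 and 0.834 FPKM in WT denervated libraries, against 2.72 and 2.77 FPKM in WT innervated libraries. The level was 3.14-fold lower in the denervated pair (log2 -1.65 ± 0.20, edgeR adjusted p = 0.00445). Drp2, which binds periaxin in the same complex, had 1.46 and 0.966 FPKM in WT denervated libraries, against 2.58 and 1.8 FPKM in WT innervated libraries. Its difference of -0.80 ± 0.28 did not pass the test (edgeR adjusted p = 0.0712).

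Cldn19 (mm9, chr4:118928045-118935043) codes for the claudin of the tight junctions in non-compact myelin. It had 50 and 14 fragments in WT denervated libraries, against 96 and 78 in WT innervated libraries. As CPM (fragments scaled for the library total alone) these were 1.08 (95% exact Poisson interval 0.801 to 1.42) and 0.459 (0.251 to 0.770) in WT denervated libraries, against 3.03 (2.46 to 3.70) and 3.06 (2.42 to 3.81) in WT innervated libraries. The intervals cover counting error only, and those of the groups do not meet. The fitted difference was 4.66-fold lower (log2 -2.22 ± 0.44, edgeR adjusted p = 0.0155). Within the runs of consecutive sample numbers it was -1.73 and -3.02 on the log2 scale, so its size differs between the library pairs. The FPKM of this gene per 1000 scaled fragments ranged from 8.24 to 16.4 between libraries, a 1.99-fold spread, and its fragments are therefore the firmer measure. Cldn5, the claudin of blood vessels, was 2.52-fold lower (edgeR adjusted p = 0.0176), and Cldn12 did not pass the test (log2 0.07 ± 0.19).

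Gjb1 (mm9, chrX:98572675-98580963) codes for a connexin that forms gap junctions between the layers of non-compact myelin, and its loss causes X-linked neuropathy. It had 311 and 132 fragments in WT denervated libraries, against 58 and 42 in WT innervated libraries. In FPKM these were 3.96 and 2.61 in WT denervated libraries, against 1.34 and 1.29 in WT innervated libraries. Gjb1 was the only one of the 8 genes with a higher level after denervation in WT. The fitted difference was 2.64-fold higher (log2 1.40 ± 0.32, edgeR adjusted p = 0.0230), with 1.63 and 1.11 in the separate runs of sample numbers.

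The other connexins tested were lower or not called. Of 20 connexin genes listed, 6 passed the minimum, Gjb1 among them, and Gjb1 alone was called higher. Among all genes tested, 14.4% were called higher and 14.3% lower. Gja1, the broadly expressed connexin of fibroblasts and vessels, was lower (log2 -0.96 ± 0.17, edgeR adjusted p = 0.0113). Gjc1 was also lower (log2 -1.10 ± 0.26, edgeR adjusted p = 0.0251). Gjc3, a connexin of glial cells that Schwann cells express, had 0.447 and 0.236 FPKM in WT denervated libraries, against 0.616 and 0.668 FPKM in WT innervated libraries. It did not pass the test (log2 -0.88 ± 0.38, edgeR adjusted p = 0.122).

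**Figure D2:**
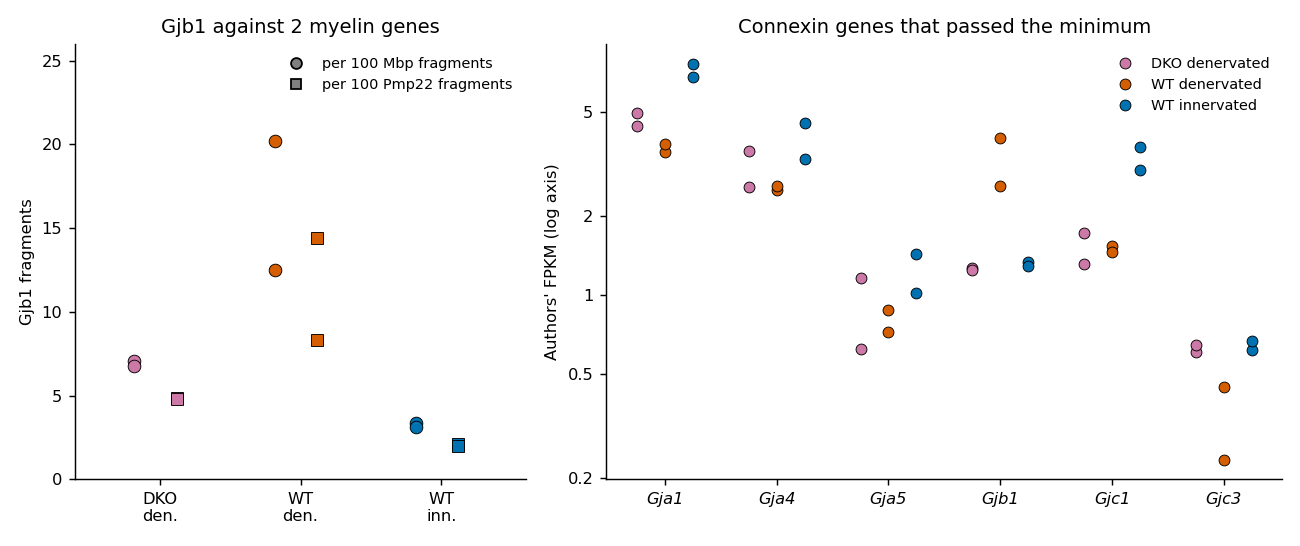
Left, Gjb1 fragments per 100 Mbp fragments (circles) and per 100 Pmp22 fragments (squares) in each library, from 0; right, FPKM of the 6 connexins that passed the minimum, on a log axis, in the same libraries. The WT denervated libraries hold the highest Gjb1 ratios (20.2 and 12.5 per 100 Mbp), and Gja1 and Gjc1 are highest in WT innervated libraries.

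Mag (mm9, chr7:31684201-31699851) codes for an adhesion protein of the Schwann cell membrane that faces the axon. It was rare, with 15 and 12 fragments in WT denervated libraries, against 31 and 34 in WT innervated libraries. As CPM these were 0.324 (95% exact Poisson interval 0.181 to 0.534) and 0.394 (0.203 to 0.687) in WT denervated libraries, against 0.979 (0.665 to 1.39) and 1.33 (0.922 to 1.86) in WT innervated libraries. The groups did not overlap, but the intervals of WT denervated replicate 2 and WT innervated replicate 1 met. A fit with no minimum gave 3.71-fold lower (log2 -1.89 ± 0.55, edgeR adjusted p = 0.0293).

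Mal (mm9, chr2:127458961-127482431) codes for a small proteolipid of membrane rafts that sorts myelin proteins. It had 0.698 and 0.814 FPKM in WT denervated libraries, against 1.64 FPKM in both WT innervated libraries. The difference was 2.11-fold lower (log2 -1.08 ± 0.27, edgeR adjusted p = 0.0278). Of the members tested, this call had the adjusted p nearest the threshold, and it was lost with library totals in place of trimmed-mean scaling (adjusted p = 0.0557) and with only the 2 groups in the fit (adjusted p = 0.0504). Pllp, a related proteolipid of myelin, had 0.471 and 0.394 FPKM in WT denervated libraries, against 1.0 and 0.953 FPKM in WT innervated libraries, and did not pass the test (edgeR adjusted p = 0.0511).

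Egr2 (mm9, chr10:67000616-67004936) is the zinc finger factor that peripheral myelination requires. It had 76 and 29 fragments in WT denervated libraries, against 153 and 78 in WT innervated libraries. In FPKM these were 0.387 and 0.229 in WT denervated libraries, against 1.41 and 0.951 in WT innervated libraries. The difference was 3.61-fold lower (log2 -1.85 ± 0.39, edgeR adjusted p = 0.0180). Its relatives Egr3 and Egr1, immediate early genes, were 15.8-fold and 11.2-fold lower (edgeR adjusted p = 0.00246 and 0.0101). Egr1 differed between replicates, with 2.58 and 2.0 FPKM in WT denervated libraries, against 41.0 and 12.7 FPKM in WT innervated libraries. In the list of 24 relatives of Pmp22, Cldn19, Mal and Egr2, these 4 members included, 16 were tested. Of those tested, 7 fell, the 4 members among them, and none rose. The share of all genes called lower was 14.3%, and the share called higher was 14.4%. Egr2 thus fell beside Egr1 and Egr3, activity-linked genes of the same family. Whether the RNA of Egr2 came from Schwann cells was not tested. Sox10, its partner factor and a general Schwann cell gene, had 1.05 and 0.787 FPKM in WT denervated libraries, against 0.662 and 1.33 FPKM in WT innervated libraries. The Sox10 groups overlapped (log2 0.02 ± 0.42, edgeR adjusted p = 0.971).

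These calls depended on having both innervated libraries. Without WT innervated replicate 1, edgeR called 1 of the 7 members, Prx (adjusted p = 0.0485), and without WT innervated replicate 2 it called none. At an unadjusted p under 0.05 all 7 passed in both cases, against 27.5% of all genes without replicate 1, 27.3% without replicate 2 and 43.9% with every library. Calls over all genes then numbered 468 and 202, against 3512 with all 6 libraries. Across the 6 fits that each left out 1 library, Pmp22 ranged from -1.16 to -0.97 and Prx from -1.69 to -1.63 on the log2 scale. The spread was wider for Gjb1, from 1.06 to 1.66, for Egr2, from -2.30 to -1.54, and for Cldn19, from -2.97 (without WT denervated replicate 1) to -1.78. Mal was also lost without DKO-labelled replicate 1 or replicate 2 (adjusted p = 0.0525 and 0.0531). Mag, fitted with no minimum, was lost without WT denervated replicate 1 (adjusted p = 0.0616) and without WT innervated replicate 1 or replicate 2 (0.104 and 0.230). DESeq2 and limma on FPKM called the same 7 members as edgeR.

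In denervated soleus the genotypes differed by at most 0.32 on the fitted log2 scale at every member except Gjb1. No member was called between DKO-labelled and WT denervated muscle by edgeR, which called 0.0408% of all genes (0.0245% higher and 0.0163% lower), and 1 member, Gjb1, had an unadjusted p under 0.05, against 6.11% of all genes. DESeq2 called that 1 member, and limma called none. For the other members the 95% intervals of the log2 difference bound what these libraries allow. Mbp differed by -0.11 (-0.45 to 0.23), Pmp22 by -0.13 (-0.47 to 0.21) and Prx by 0.01 (-0.46 to 0.48). Rarer members were less well bounded, with Mal at -0.28 (-0.92 to 0.36), Egr2 at -0.21 (-1.16 to 0.75), Cldn19 at 0.32 (-0.75 to 1.39) and Mag, with no minimum, at -0.16 (-1.45 to 1.13). These intervals bound the differences and do not show that the genotypes are alike.

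Gjb1 was the exception in size. It had 74 and 69 fragments in DKO-labelled libraries, against 311 and 132 in WT denervated libraries. In FPKM these were 1.27 and 1.25 in DKO-labelled libraries, against 3.96 and 2.61 in WT denervated libraries. Both DKO-labelled libraries lay below both WT denervated ones, close to the WT innervated level of 1.34 and 1.29 FPKM. The fitted difference was 2.52-fold lower (log2 -1.34 ± 0.32, 95% interval -2.09 to -0.58), with an unadjusted p of 0.00457 and an edgeR adjusted p of 0.395. With DESeq2 the difference was -1.35 and the adjusted p 0.0416, and over all alternatives the adjusted p ranged from 0.0416 to 0.984. Because the WT denervated libraries enter both Gjb1 differences, the higher WT denervated value appears in each and the differences are not independent.

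**Figure D3:**
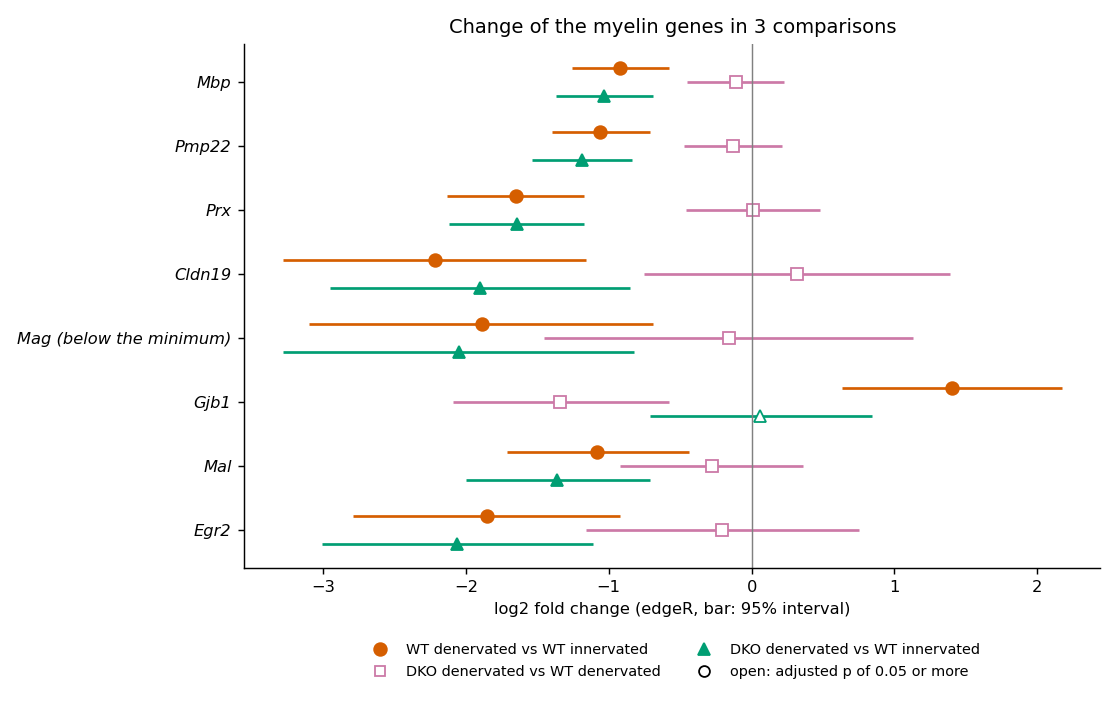
Fitted log2 fold change (x axis) of each myelin gene with its 95% interval, for WT denervated against WT innervated (circles), DKO-labelled against WT denervated (squares) and DKO-labelled against WT innervated (triangles); open symbols have an adjusted p of 0.05 or more. Squares lie near 0 except for Gjb1 at -1.34, and circles lie left of 0 except for Gjb1 at 1.40.

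Against WT innervated muscle, where genotype and denervation differ together, the DKO-labelled libraries were lower for 6 of the 7 members tested, and no member was called higher. Over all genes, edgeR called 31.4%, with 16.2% lower and 15.2% higher, or 10.1% lower and 30.4% higher when scaled by library totals alone. At an unadjusted p under 0.05 the same 6 members passed, and 44.8% of all genes. Mbp was 2.04-fold lower (log2 -1.03 ± 0.14, edgeR adjusted p = 0.00470), and Pmp22 was 2.28-fold lower (log2 -1.19 ± 0.14, edgeR adjusted p = 0.00325). Egr2 had 0.265 FPKM in each DKO-labelled library, against 1.41 and 0.951 FPKM in WT innervated libraries, a 4.17-fold difference (edgeR adjusted p = 0.0120). Prx, Cldn19 and Mal were 3.13-fold, 3.74-fold and 2.56-fold lower. Gjb1 did not differ beyond its spread (log2 0.06 ± 0.32, 95% interval -0.71 to 0.84). With 1 WT innervated library left out, whichever it was, Pmp22 and Prx were still called, and with 1 DKO-labelled library left out, Mbp, Pmp22 and Prx were. These comparisons share the WT innervated libraries with those of WT denervated muscle, so the likeness of their values is not separate evidence.

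The order of the members by FPKM was headed by Pmp22 and then Mbp in all 3 groups. In WT innervated soleus Prx (2.74 ± 0.0362 FPKM, SD, n = 2) came next. Mal, Cldn19, Gjb1 and Egr2 followed between 1.64 and 1.18 FPKM, with neighbours whose ranges overlapped, and Mag was last at 0.434 ± 0.114 FPKM. In WT denervated soleus Gjb1 ranked next at 3.29 ± 0.960 FPKM, above Prx at 0.810 ± 0.0338 FPKM and Mal at 0.756 ± 0.0815 FPKM, whose ranges overlapped. Egr2 and Cldn19 also overlapped there. In DKO-labelled soleus Gjb1 again ranked next, at 1.26 ± 0.0150 FPKM, with Prx at 0.785 ± 0.0780 FPKM and Mal at 0.629 ± 0.0111 FPKM below it. In that group only Cldn19 and Egr2 overlapped.

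All 8 genes together took 94.1 and 93.7 CPM in DKO-labelled libraries, 99.1 and 103 in WT denervated libraries, and 175 and 167 in WT innervated libraries. These sums are shares of the library total and would change with another scaling. Ratios between members within a library do not depend on how libraries are scaled. Mbp stood at 68.5 and 71.0 fragments per 100 Pmp22 fragments in DKO-labelled libraries, at 71.2 and 66.3 in WT denervated libraries, and at 61.9 and 63.1 in WT innervated libraries. That pair kept a similar balance, although all 4 denervated libraries lay above both WT innervated ones. Prx, in contrast, stood at 15.9 and 13.6 per 100 Pmp22 fragments in DKO-labelled libraries, at 14.0 and 12.9 in WT denervated libraries, and at 20.3 and 20.2 in WT innervated libraries. Prx was thus lower relative to Pmp22 in all 4 denervated libraries. Gjb1 stood at 7.09 and 6.80 per 100 Mbp fragments in DKO-labelled libraries, at 20.2 and 12.5 in WT denervated libraries, and at 3.39 and 3.12 in WT innervated libraries. Relative to Mbp, Gjb1 was higher than in WT innervated soleus in both denervated groups. The DKO-labelled values lay between those of the other groups, although Gjb1 itself was close to its WT innervated FPKM there. These ratios were chosen after the values were seen and carry no test.

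Other genes of the sheath were read from a list of 16 myelin proteins outside the members, of which 15 were in the tables and 14 were tested. Between WT denervated and WT innervated soleus, 4 of these fell and none rose, and those that fell included Cd59a (2.0-fold), the kinase substrate Ndrg1 (1.96-fold) and the tetraspanin Tspan2 (2.06-fold). The list median was -0.78 on the log2 scale, against 0.00 over all genes. The 4 called of 14 tested is close to the share of all genes called. DESeq2 called 5 lower and 2 higher in this list, and edgeR with scaling by library totals alone called 3 lower and 3 higher. Without WT innervated replicate 1 edgeR called 1 lower, and likewise without replicate 2. Between DKO-labelled and WT denervated soleus edgeR called none, with 2 at an unadjusted p under 0.05, and DESeq2 called 1 higher and 1 lower. Cd59a, a complement inhibitor on cell surfaces, had 26.7 and 31.3 FPKM in DKO-labelled libraries, against 14.9 and 15.1 FPKM in WT denervated libraries (log2 0.92 ± 0.15, unadjusted p = 0.000634, edgeR adjusted p = 0.194).

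Of 16 regulators of Schwann cell myelination, 11 were tested, and 1, Lgi4, fell in WT denervated soleus (log2 -1.04 ± 0.31, edgeR adjusted p = 0.0490). Lgi4 is a secreted factor that Schwann cells need for timely myelination. The list median was 0.02, and 14.3% of all genes tested were called lower in this comparison. Scaled by library totals alone, edgeR called none of this list lower and 3 higher. None was called lower with only the 2 groups in the fit, nor in 5 of the 6 fits without 1 library, and DESeq2 called 1 lower and 1 higher. Erbb3, the neuregulin receptor of Schwann cells, had 6.13 and 3.45 FPKM in WT denervated libraries, against 2.31 and 2.63 FPKM in WT innervated libraries, and did not pass the test (edgeR adjusted p = 0.0683). Nab2, a co-factor of Egr2, had a log2 difference of -0.63 ± 0.27 (edgeR adjusted p = 0.117).

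Of 15 proteins of the node of Ranvier and the paranode, 7 were tested. Between WT denervated and WT innervated soleus 1 was called, beside 28.7% of all genes tested. That gene, the adhesion molecule Nrcam, had 16.6 and 4.30 FPKM in WT denervated libraries, against 0.210 and 0.171 FPKM in WT innervated libraries. It rose 55.8-fold (edgeR adjusted p = 0.00445), and the list median was -0.63. DESeq2 called 3 of this list lower beside 1 higher, and limma called 2 lower and 1 higher. The adhesion molecules of the internode Cadm4 and Cadm3 had log2 differences of -0.68 ± 0.21 and -1.14 ± 0.36, with edgeR adjusted p-values of 0.0538 and 0.0550.

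Lipid synthesis, on which myelin draws, did not move one way. Of 25 listed enzymes and regulators of cholesterol and myelin lipids, 21 were tested. In WT denervated soleus 6 rose and 3 fell, with a median of 0.30. The shares of all genes tested were 14.4% called higher and 14.3% called lower. Srebf2, the regulator of cholesterol synthesis, rose 2.23-fold (edgeR adjusted p = 0.00672), whereas Fdft1, which makes squalene, fell 3.15-fold (edgeR adjusted p = 0.00251). Elovl1, which lengthens fatty acids, rose 2.44-fold (edgeR adjusted p = 0.0108), and Mvd, of the mevalonate pathway, fell 2.08-fold (edgeR adjusted p = 0.0155). Muscle fibres express these genes as well.

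**Figure D4:**
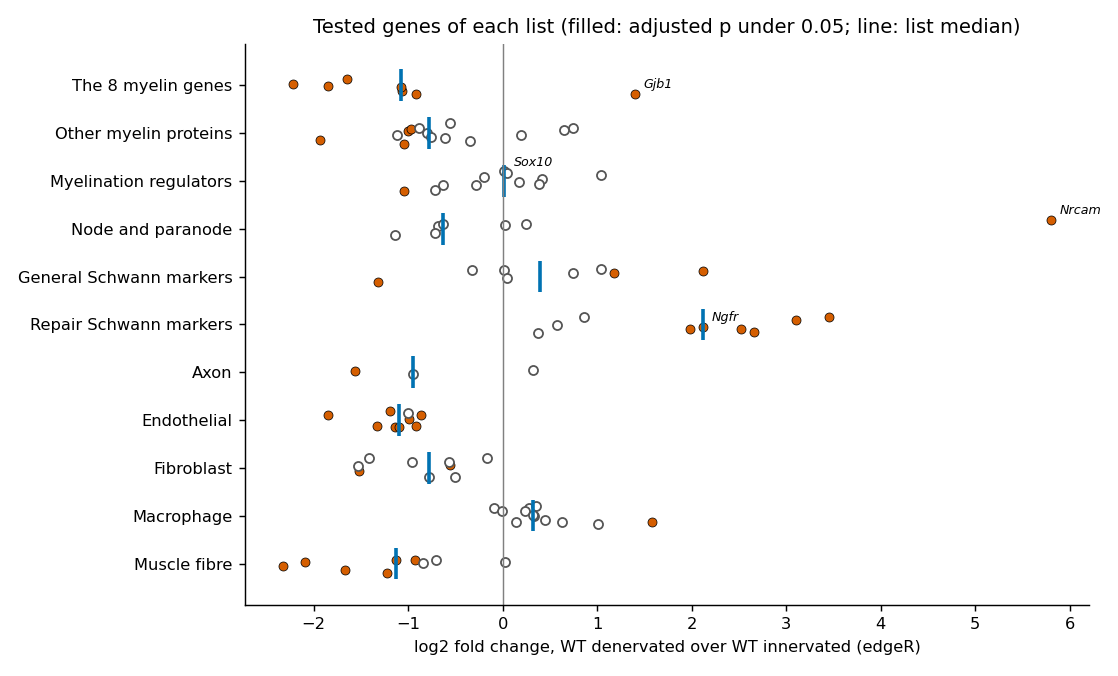
Fitted log2 fold change of WT denervated over WT innervated soleus (x axis) for each tested gene of 11 lists; filled points have an adjusted p under 0.05 and vertical lines are list medians. The repair Schwann cell list has its median at 2.12, and the endothelial (-1.10) and muscle fibre (-1.13) medians lie close to that of the myelin genes (-1.08).

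Of 16 listed markers of the repair state, 9 were tested, and 6 rose in WT denervated soleus while none fell (median 2.12 on the log2 scale). The share of all genes called higher was 14.4%. Ngfr had 2.58 and 2.45 FPKM in WT denervated libraries, against 0.642 and 0.596 FPKM in WT innervated libraries, a 4.35-fold difference (edgeR adjusted p = 0.00304). Gdnf rose 10.9-fold, Runx2 6.33-fold and Ncam1, which muscle fibres also express, 8.64-fold. Which cells made the RNA of any marker in this list was not tested. Jun, which directs the repair program, had 33.9 and 59.5 FPKM in WT denervated libraries, against 36.0 and 38.6 FPKM in WT innervated libraries, and these groups overlapped (log2 0.37 ± 0.29, edgeR adjusted p = 0.357). Without WT innervated replicate 1, edgeR called 3 of the list, and without WT innervated replicate 2 none, with 7 and 6 at an unadjusted p under 0.05.

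General Schwann cell markers were mixed. Over all genes tested, 14.4% were called higher and 14.3% lower in WT denervated soleus. Of 12 listed, 8 were tested, and 2 rose (Ngfr and Cdh19) while 1 fell (S100b). Cdh19, a cadherin of the Schwann cell lineage, had 1.42 and 1.07 FPKM in WT denervated libraries, against 0.526 and 0.587 FPKM in WT innervated libraries (2.26-fold, edgeR adjusted p = 0.0293). S100b had 0.695 and 0.447 FPKM in WT denervated libraries, against 1.66 and 1.29 FPKM in WT innervated libraries (2.49-fold lower, edgeR adjusted p = 0.0374). Scaled by library totals alone, 4 of this list rose and none fell. The list median was 0.39, and the summed level was 15.0 and 20.9 FPKM in WT denervated libraries, against 12.5 and 13.3 FPKM in WT innervated libraries. Of 11 axon and motor neuron markers 3 were tested, 1 fell and none rose, and Chat, Slc18a3 and Syt1 were listed at 0 in all libraries. Prph, an intermediate filament of peripheral neurons, had 0.541 and 0.319 FPKM in WT denervated libraries, against 1.10 and 1.62 FPKM in WT innervated libraries (2.96-fold lower, edgeR adjusted p = 0.0365). No axon marker was called when libraries were scaled by their totals alone, with only the 2 groups in the fit, or in 5 of the 6 fits without 1 library. Stmn2, a microtubule regulator of neurons, and Uchl1, a neuronal ubiquitin hydrolase, had log2 differences of -0.95 ± 0.42 and 0.32 ± 0.31 (edgeR adjusted p = 0.13 and 0.453).

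Markers of some other cells also differed. Between WT denervated and WT innervated soleus, 14.3% of all genes tested were called lower and 14.4% higher. Of 9 endothelial markers tested, 8 fell in WT denervated soleus, with a median of -1.10. Their summed level was 61.6 and 72.7 FPKM in WT denervated libraries, against 141 and 166 FPKM in WT innervated libraries. Of 9 muscle fibre markers tested, 6 fell, with a median of -1.13. Of 9 fibroblast markers, 2 fell (Dcn and Dpt), or none when scaled by library totals alone, and their sum was 384 to 553 FPKM in WT denervated libraries, against 717 to 892 FPKM in WT innervated libraries. Of 12 macrophage markers, 1 rose, Cd68 (3.00-fold, edgeR adjusted p = 0.0111). Of 8 perineurial and endoneurial markers, 1 rose (Slc2a1) and 1 fell (Osr2), and of 10 T cell markers the 1 tested was not called. The only tested genes of the epithelial list, the keratins Krt8 and Krt18, rose. Several of these markers are made by more than one cell type. The median of the tested myelin genes (-1.08) was thus near the endothelial and fibre medians. Single members ranged from -2.22 (Cldn19) to 1.40 (Gjb1) on the log2 scale. The part of cell makeup in the result was not tested. Between DKO-labelled and WT denervated soleus edgeR called no gene of these lists of other cells. At an unadjusted p under 0.05 there were 2 perineurial and endoneurial markers and 1 macrophage marker, and DESeq2 called 1 perineurial and endoneurial marker lower. In WT denervated against WT innervated soleus, edgeR called fewer endothelial and fibre markers without WT denervated replicate 2. The same held without WT innervated replicate 2.

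The genes whose levels followed those of the members most closely were ranked by Pearson r over the 6 libraries, as a description. The libraries fall into groups, so any gene that differs between them the same way gives a high r. Mbp was followed most closely by Atp5a1 (r = 0.9994), Atp5f1 and Sdhd, which code for parts of the mitochondrial oxidative phosphorylation complexes. Pmp22 was followed by Epdr1 (r = 0.9992), Slc27a1, a fatty acid transporter, and Atp5a1. Prx was followed by genes that included Zfp36 (r = 0.9994) and Metap1d. Mal was followed by Acadm (r = 0.9995), an enzyme of fatty acid oxidation, then Krba1 and Nit2. For Cldn19 they were Fam158a (r = 0.9986), Bcs1l and D0H4S114, and for Egr2 Zfp11 (r = 0.9986), AW112010 and Frat2. The mean profile of the 7 tested members was followed by Lpl (r = 0.9997), the joined entry of A330023F24Rik, Mir29b-2 and Mir29c, Thap11, Rtf1 and Rai1. Members other than Gjb1 had 586 to 842 genes each at an r of at least 0.95. Gjb1 had 9 such genes, led by Stambp (r = 0.9989), Cul4a and Ccdc141, and its r with the other members ran from -0.542 to -0.379. Among themselves the other tested members ran from 0.846 to 0.998.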

How the data were processed

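Groups were taken from the sample titles, and replicates were numbered in accession order. The submitters' processing notes name build mm9 with Cuffdiff 2.0.2, TopHat2 2.0.3, Bowtie2 2.0.0.7, Trim Galore 0.2.1 and CASAVA 1.8.2. The sources used here do not give their order, the strandedness or the gene annotation. The deposited tables hold, per the file headers, the authors' FPKM, an externally scaled fragment signal and raw fragments. The deposited signal was the raw fragments times 1 factor per library, 0.6643 to 1.5641. The deposited raw fragments are estimated counts and were rounded (88.4% to 89.0% were whole to 1e-06). The sources do not say how reads shared by paralogs, overlapping genes or antisense genes were assigned. Each table lists every entry 3 times; 21805 distinct entries carried 21572 symbols, and entries of 1 symbol were summed. Gene coordinates are the files', and whether their starts count from 0 is not stated.

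Differences were tested with the quasi-likelihood method of edgeR 4.0.16 in R 4.3.3, with TMM scaling and 1 model of 3 group means over all 6 libraries, 3 residual degrees of freedom, and genes with a mean of at least 0.5 FPKM (12247). Calls used a two-sided Benjamini-Hochberg adjusted p under 0.05 over all genes tested. The SE is the log2 fold change over the square root of F. The common coefficient of biological variation was 0.222. Alternatives used DESeq2 1.42.0, limma 3.58.1 on log2(FPKM + 0.5) and log2(FPKM + 1), other scalings and filters, a run block, and fits without each library. The steps were tested on simulated data. Intervals per library are 95% exact Poisson and cover counting error only. Likeness used log2 TMM-scaled CPM with a prior count of 2.

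Named genes were the 8 members, up to 4 tested genes of smallest p in each list, Sox10, Jun, Ngfr, Dach2, Hdac9, and the 3 most alike genes per member (5 for the mean profile). Outside that rule, Cldn12, Drp2, Emp1, Emp2, Emp3 and Pllp are named as relatives or partners of members, and their values had been seen. The members and lists were chosen with earlier results of these data known. Some genes that this rule names are not reported here.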

Additional observations from a re-analysis of the deposited data

How the results depend on the processing

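In WT denervated against WT innervated soleus, 6 to 8 members were called under the 9 alternatives that kept every library needed (8 where Mag entered). Leaving out 1 library at a time gave 0 to 7 members and 202 to 5357 genes over the whole table; the cause was not tested. With library totals only, the median of all genes moved to 0.27 in that comparison and to 0.33 in DKO-labelled against WT innervated soleus, and the direction of no called member changed there. In DKO-labelled against WT denervated soleus, 0 members were called in every fit without 1 library, and DESeq2 called 1, Gjb1. Over all genes, edgeR called 5 in that comparison, 10 with RLE size factors, 3 with library totals only, 60 with no filter, 10 with filterByExpr, 0 with only the 2 groups (Gjb1 at an unadjusted p under 0.05) and 0 to 119 without 1 library, while DESeq2 called 182 and limma 33 with either pseudocount. In DKO-labelled against WT innervated soleus, fits without 1 library called 2 to 6 members and 661 to 5517 genes. The sign turned only at differences that were not called: between the denervated groups, Prx was -0.01 with RLE and DESeq2, -0.03 and -0.02 with limma, and -0.11 to 0.11 without 1 library. Without 1 library, Cldn19 ranged from -0.12 to 1.07, Mag from -0.47 to 0.09 (0.01 without WT denervated replicate 2) and Egr2 from -0.52 to 0.23. Gjb1 in DKO-labelled against WT innervated soleus was -0.05 and -0.04 with limma. The labels give no pairing. With the runs of consecutive sample numbers as a replicate block, 7 members were called in WT denervated against WT innervated soleus, 0 in DKO-labelled against WT denervated soleus and 6 in DKO-labelled against WT innervated soleus, and the block changed no call of a member. Depth limits Mag, with 8 to 34 fragments per library, and Cldn19, with 14 to 96.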
